A study of Homo sapiens with 2 samples.

Results

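The SLC2A genes encode the facilitative sugar transporters, membrane proteins that let hexoses and related polyols move across a membrane down their gradient, without sodium coupling. Some members carry glucose in nearly every cell, some carry fructose, urate or myo-inositol, and some sit mostly on membranes inside the cell. Tumour epithelium is known for high glucose uptake, for which SLC2A1 is the usual route.

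Expression of this family was compared between MKN45P, described as a highly metastatic gastric cancer cell line, and MKN45, the human gastric cancer line it came from. Each line was read on 1 Affymetrix exon array, from total RNA of cultured cells grown in the same medium with 10% serum. The labels name no treatment, and both are single established lines, so each group is 1 culture on 1 array. The members were chosen by name as a gene family, on earlier results of these same 2 arrays, and their differences between the lines were known at that point: they are described here and not tested. Of 10 listed genes, 9 had at least 1 probeset (a small group of probes placed in an exon) annotated with exactly 1 symbol, 140 probesets in all, among 18923 such symbols on the array. SLC2A6, which encodes a transporter of lysosomal membranes, had no such probeset and is not analysed here.

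Values are log2 levels per probeset, and the difference of a gene is the median over its probesets of MKN45P minus MKN45. Genes with 4 or more probesets whose median level reached 1.92, the midpoint of the whole array, were taken as measured. On that rule 7 members were measured, and SLC2A3 (median level 1.919) and SLC2A12 (1.871) lay just under it, with SLC2A2 (2.046), SLC2A4 (2.068) and SLC2A5 (2.072) just above it. A probeset whose mean over both arrays was at or above 2.77, the 75th percentile, is called one with signal. Signal in a named line means that the value of that line reached 2.77. A probeset can pass through 1 line alone, where it is high, so differences over probesets with signal partly follow from that choice. Near the low end values may be compressed, by an amount that was not measured, so the size of a difference there is uncertain. There was 1 array per line, so differences between the lines could not be tested. The range over probesets is not a replicate error. Levels of different genes come from different probes and are not ranked against each other. In a bulk sample, fewer cells with a transcript and less transcript per cell cannot be told apart.

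Both arrays carried epithelial transcripts. CDH1, the epithelial cadherin, had levels of 10.74 in MKN45P and 10.26 in MKN45, and LGALS4, an intestinal galectin, had 10.17 in both. These were among the brightest of 10 epithelial markers, whose levels ran from 1.93 to 10.74 in MKN45P and from 1.89 to 10.26 in MKN45. KRT20, at the low end, was under the level filter, and KRT8 was at 3.13 in MKN45P and 3.31 in MKN45. Of the 8 gastric markers, 5 were measured and none was past 2-fold. TFF1 was at 3.71 in MKN45P and 4.92 in MKN45, and GKN1, GKN2 and TFF2 lay below the level filter. Of the 8 immune markers, PTPRC, CD3E, CD79A and CD14 were under the level filter, and levels of the list ran from 1.65 to 2.50 in MKN45P and from 1.66 to 3.12 in MKN45. The 4 fat and muscle markers had levels from 1.81 (ADIPOQ) to 2.69 (ACTA1) in MKN45P and from 1.82 to 3.07 in MKN45, and ACTA1 had signal at 4 of 9 probesets in MKN45P and 6 in MKN45. The 6 fibroblast markers ran from 1.69 to 2.86 in MKN45P and from 1.82 to 2.62 in MKN45, with COL1A1 the upper end in both. The 3 hepatocyte markers ran from 1.74 to 1.88 in MKN45P and from 1.73 to 2.18 in MKN45. Of the 11 measured markers of fibroblasts, endothelium, red cells, hepatocytes and fat or muscle none was past 2-fold, and none of all markers other than the epithelial CLDN7 was.

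SLC2A10 was the only measured member past 2-fold, and it was higher in MKN45P. It stood at a median level of 6.74 in MKN45P and 2.40 in MKN45. Its difference, the median over its 10 probesets, was 3.76 (interquartile range 1.67 to 4.57), and the difference between the median levels was 4.34. As 6 of these probesets were under the signal line in MKN45, the size of the difference is uncertain and no exact fold is given. The other 6 measured members differed by between -0.56 and 0.05, and none was 2-fold lower. Of all 13130 measured genes, 4.58% passed 2-fold upward and 1.2% downward, shares given as background, from which nothing is read about members chosen on this same contrast. The median over the 7 measured members was -0.15, against 0.03 over all measured genes.

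**Figure D1:**
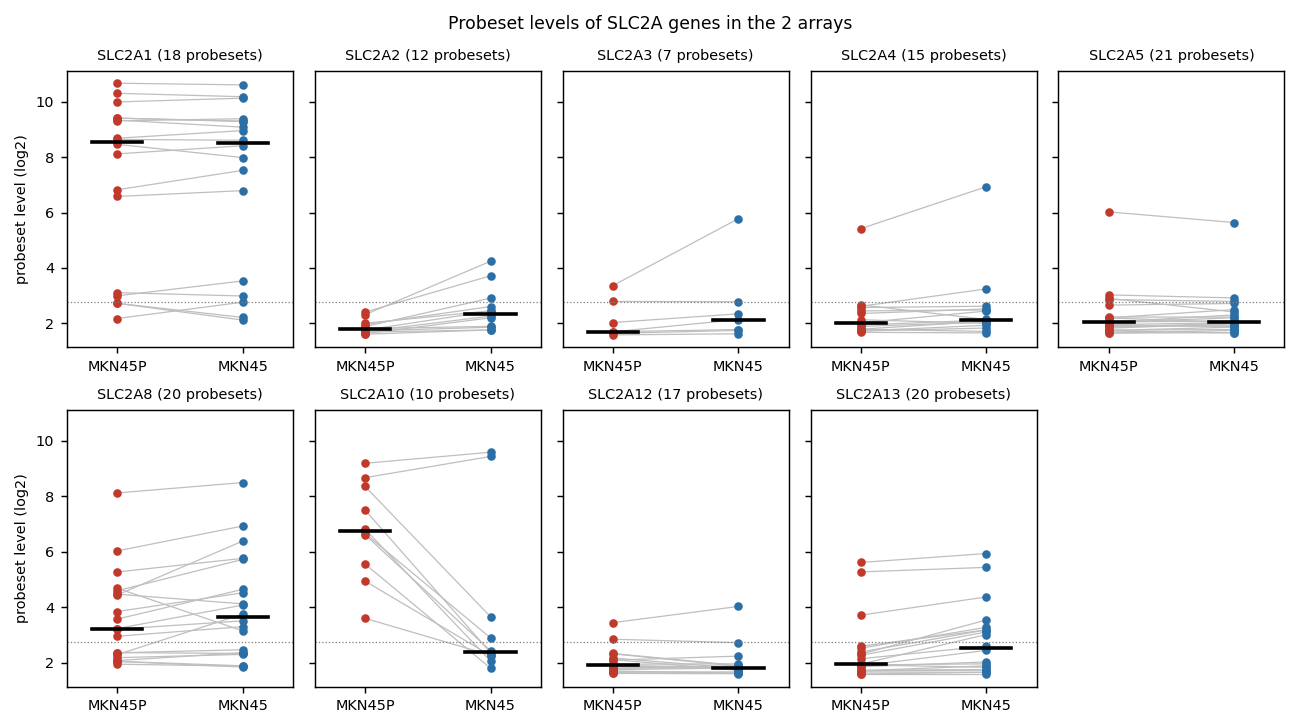
Levels (log2) of every probeset of the 9 SLC2A genes on the array, MKN45P in red and MKN45 in blue, with a grey line joining the same probeset and a black bar at the median; the dotted line is the 75th percentile of all probesets, 2.77. SLC2A1 lies near 8.5 in both lines, and 8 of the 10 SLC2A10 probesets lie far higher in MKN45P.

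Promoter windows of 3 members are shown because they are the gene that differed (SLC2A10), the one with many bright probesets in both lines (SLC2A1) and the one lower at every probeset in MKN45P (SLC2A2). Each is a 300-base RefSeq window of GRCh38.p14, from 250 bases before a transcript start that the table uses to 50 after it, on the strand of the gene. They lie at chr20:46709399-46709698 (plus strand), chr1:42958819-42959118 (minus strand) and chr3:171026671-171026970 (minus strand). For SLC2A1 and SLC2A2 that start is the outer end of the annotated gene; SLC2A10 is annotated from base 46708320, so its window lies inside the gene and covers one of its starts, not the outermost. Capitals mark GC boxes, CCAAT boxes and TATA boxes found on either strand.
SLC2A10: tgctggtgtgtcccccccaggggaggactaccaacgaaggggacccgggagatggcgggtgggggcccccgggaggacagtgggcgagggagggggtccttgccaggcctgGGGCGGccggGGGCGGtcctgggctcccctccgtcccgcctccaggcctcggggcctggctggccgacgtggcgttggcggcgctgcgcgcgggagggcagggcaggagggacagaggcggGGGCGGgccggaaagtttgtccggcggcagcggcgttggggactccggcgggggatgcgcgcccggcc
SLC2A1: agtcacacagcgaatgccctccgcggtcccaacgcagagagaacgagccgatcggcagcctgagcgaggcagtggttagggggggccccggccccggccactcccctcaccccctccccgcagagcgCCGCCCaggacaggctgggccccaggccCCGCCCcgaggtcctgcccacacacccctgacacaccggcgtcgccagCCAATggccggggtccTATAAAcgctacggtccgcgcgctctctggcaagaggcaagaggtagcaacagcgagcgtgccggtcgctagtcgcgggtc
SLC2A2: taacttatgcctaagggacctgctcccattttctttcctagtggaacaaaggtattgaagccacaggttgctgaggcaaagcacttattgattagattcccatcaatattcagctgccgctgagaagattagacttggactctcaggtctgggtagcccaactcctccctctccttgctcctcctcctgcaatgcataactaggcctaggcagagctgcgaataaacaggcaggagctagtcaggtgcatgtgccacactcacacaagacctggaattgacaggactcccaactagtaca

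The SLC2A10 window held 3 GC boxes (GGGCGG), a motif found in 45.0% of 35116 windows of this length in the table. The SLC2A1 window held 2 GC boxes, 1 TATA box (TATAAA, in 11.5% of windows) and 1 CCAAT box (CCAAT, in 34.6%). The SLC2A2 window held none of these 3 motifs, and in the windows shown no match overlapped another. The hypoxia core and the E-box were also searched and are not marked. The hypoxia core (ACGTG, in 21.4% of windows) had 1 match in the SLC2A10 window and none in those of SLC2A1 and SLC2A2. The E-box (CACGTG, in 7.3%) had no match in any of them. CpG dinucleotides numbered 31 in the SLC2A10 window, 30 in that of SLC2A1 and 2 in that of SLC2A2, where the median window had 14. These are matches of letters in fixed windows and show no binding. The positions of the array's probesets were not used here.

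SLC2A10 encodes a transporter known from arterial tortuosity syndrome, which loss of the gene causes, and it has been linked to the carriage of dehydroascorbic acid, the oxidised form of vitamin C. Its probesets fell into 2 blocks by ID. The 2 lowest IDs were bright in both lines and lower in MKN45P, short of 2-fold. Probeset 3887455 was at 9.19 in MKN45P and 9.59 in MKN45 (-0.40), and 3887456 at 8.67 in MKN45P and 9.44 in MKN45 (-0.76). All of the other 8 were more than 2-fold higher in MKN45P, by 1.33 to 5.15. Their levels ran from 3.60 to 8.36 in MKN45P and from 1.80 to 3.66 in MKN45. Probeset 3887469 showed the largest difference, at 7.51 in MKN45P and 2.36 in MKN45. Probeset 3887470 was the brightest of the 8, at 8.36 in MKN45P and 3.66 in MKN45, and was also the highest of them in MKN45. The weakest was 3887464, at 3.60 in MKN45P and 2.27 in MKN45. In MKN45P none of the 10 probesets was under the signal line, against 6 in MKN45.

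Between these blocks lay 3 probesets that the annotation leaves unnamed. Probeset 3887457 was at 4.08 in MKN45P and 3.80 in MKN45, 3887458 at 2.02 in MKN45P and 1.69 in MKN45, and 3887463 at 1.76 in MKN45P and 1.69 in MKN45. None of the 3 shared the large difference of the later IDs. Relative to the gene's own difference, 3887455 departed by -4.16 and 3887456 by -4.53. Without that bright pair, which was set aside after its values were seen, the SLC2A10 difference was 3.98. Whether they read the same transcript as the other 8, another transcript start or other RNA was not tested.

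**Figure D2:**
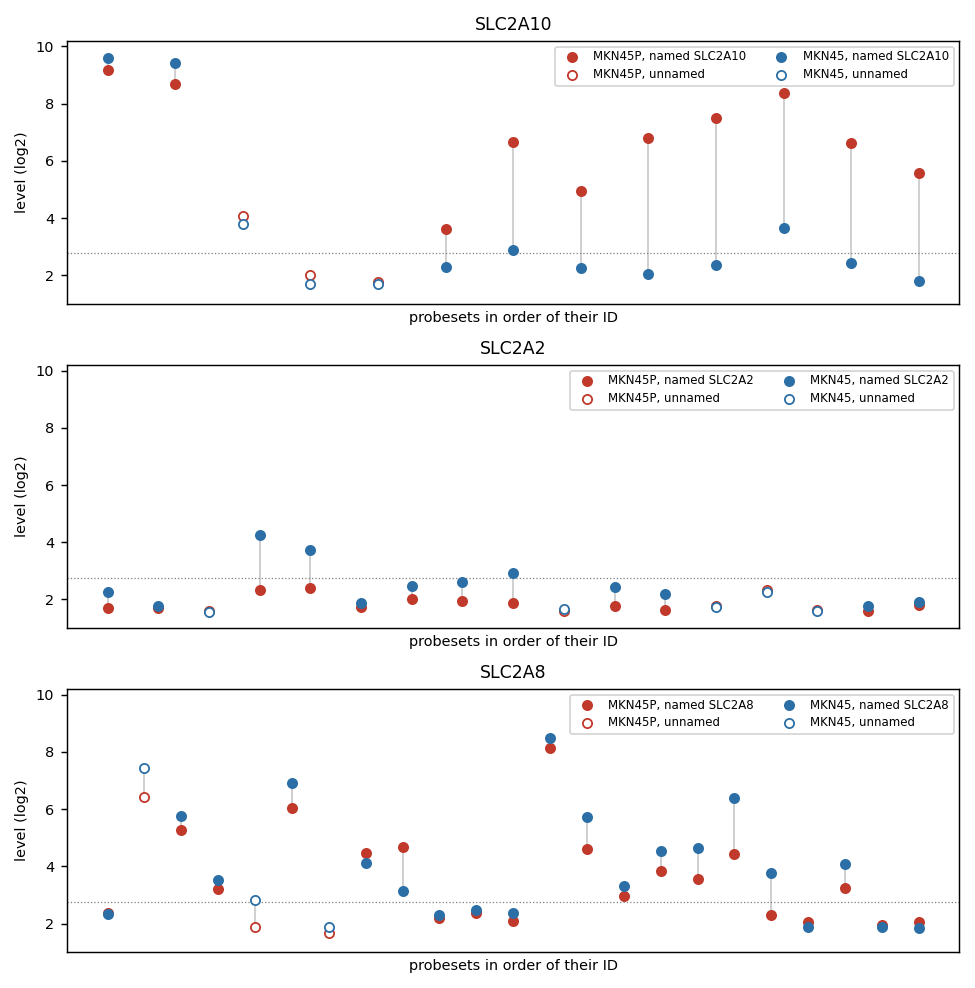
Levels (log2, vertical axis) of the probesets of SLC2A10, SLC2A2 and SLC2A8 in order of probeset ID, MKN45P in red and MKN45 in blue; filled points are named for the gene, open points are unnamed probesets with IDs in between, and the dotted line is 2.77. In SLC2A10 the leading pair lies near 9 in both lines and the last 8 points are separated.

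The genes next to SLC2A10 on chromosome 20 did not show a difference of that size. By RefSeq order its nearest protein-coding neighbours with probesets were TP53RK, SLC13A3 and OCSTAMP on one side and EYA2, ZMYND8 and NCOA3 on the other, a set chosen after the SLC2A10 value was seen. The 5 that were measured differed by -0.26 to 0.55, with none past 2-fold. Of all 13130 measured genes only 28 were at least 8-fold higher in MKN45P, so nothing is read from the lack of such a difference in 5 genes. TP53RK, a kinase gene, was at 4.50 in MKN45P and 4.79 in MKN45. ZMYND8, a chromatin reader gene, was the highest, at 5.33 in MKN45P and 4.16 in MKN45 (difference 0.55). EYA2 was below the level filter, at 1.90 in both lines. Across all 9 members, 36 of 54 such neighbours were measured, and 1 was past 2-fold: CLDN7, a claudin gene beside SLC2A4, higher by 1.14. Of all measured genes 4.58% passed 2-fold upward and 1.2% downward.

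SLC2A1, the transporter of basal glucose uptake and the main one in red cells and many tumours, was nearly equal in the lines. Its median level was 8.55 in MKN45P and 8.51 in MKN45, and its difference 0.05 (interquartile range over 18 probesets -0.26 to 0.12). Of those probesets 10 were higher and 8 lower in MKN45P, with extremes of 0.60 and -0.70, so none of these named probesets reached 2-fold. Among probesets with signal the highest difference was at 2409116, with 8.46 in MKN45P and 7.98 in MKN45. The lowest was at 2409127, with 6.82 in MKN45P and 7.52 in MKN45. Its brightest probeset, 2409120, read 10.66 in MKN45P and 10.60 in MKN45.

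SLC2A2, the low-affinity glucose transporter of liver, pancreatic beta cells and intestine, was lower in MKN45P at all 12 of its probesets. Its median level was 1.79 in MKN45P and 2.36 in MKN45, with a difference of -0.56 (interquartile range -0.77 to -0.15), short of 2-fold. The 2 probesets with signal showed the widest gaps, but both passed only through MKN45, where they were higher. Probeset 2705221 was at 2.32 in MKN45P and 4.24 in MKN45, and 2705222 was at 2.41 in MKN45P and 3.72 in MKN45. No probeset reached the signal line in MKN45P and 3 did in MKN45. Over those 2 probesets alone the difference was -1.62, a size that partly follows from their selection through MKN45. On the chromosome the nearest measured neighbours of SLC2A2 were all higher in MKN45P, from 0.11 to 0.81, short of 2-fold.

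SLC2A3, the high-affinity glucose transporter of neurons, had little signal on this array. The gene's median level was 1.70 in MKN45P and 2.14 in MKN45, and its difference -0.11 (interquartile range over 7 probesets -0.38 to -0.06). A single probeset, 3442874, stood apart, at 3.37 in MKN45P and 5.78 in MKN45, a difference of -2.41. The next brightest, 3442879, was at 2.79 in MKN45P and 2.78 in MKN45. The other 5 lay between 1.59 and 2.03 in MKN45P and between 1.63 and 2.35 in MKN45. SLC2A14, a near copy of SLC2A3 known mainly from testis, lies beside it on chromosome 12, and RNA of either gene may reach the probes of the other, so both values are uncertain. SLC2A14 was also low, at 1.79 in MKN45P and 1.85 in MKN45 (difference -0.06, 14 probesets). The 1 probeset named for both genes, 3442866, read 1.76 in MKN45P and 1.66 in MKN45.

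SLC2A4, the insulin-responsive transporter of fat and muscle, was near the low end. It had a median level of 2.02 in MKN45P and 2.12 in MKN45 (difference -0.15, interquartile range over 15 probesets -0.25 to -0.01), and 11 of the 15 were lower in MKN45P. Probeset 3708412 alone was bright, at 5.42 in MKN45P and 6.93 in MKN45, while the second with signal, 3708401, read 2.62 in MKN45P and 3.25 in MKN45. The other 13 lay under 2.77 in both lines.

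SLC2A5, the fructose transporter of the small intestine, was close in the lines at each of its named probesets, the widest difference being 0.49. The median level was 2.04 in both lines and the difference -0.03 (interquartile range over 21 probesets -0.12 to 0.07). Probeset 2395579 was again a lone bright one, at 6.02 in MKN45P and 5.64 in MKN45. Of the 3 with signal the smallest difference was at 2395587, which read 2.86 in MKN45P and 2.80 in MKN45.

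SLC2A8, a glucose transporter kept largely on internal membranes, had signal at 13 of its 20 probesets, and most of these were lower in MKN45P. Of all 20 probesets, 14 were lower and 6 higher in MKN45P. The median level was 3.22 in MKN45P and 3.63 in MKN45, with a difference of -0.32 (interquartile range -0.86 to 0.04). Lower by more than 2-fold in MKN45P were 4 probesets, led by 3189824, at 4.44 in MKN45P and 6.39 in MKN45. Probeset 3189814 went the other way, at 4.69 in MKN45P and 3.15 in MKN45. The brightest, 3189819, read 8.12 in MKN45P and 8.50 in MKN45. Over probesets with signal alone the difference was -0.68.

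SLC2A13 and SLC2A12 complete the members. SLC2A13, which carries myo-inositol together with protons, was lower in MKN45P at 17 of 20 probesets. Its median level was 1.94 in MKN45P and 2.52 in MKN45 (difference -0.25, interquartile range -0.68 to -0.04). Its brightest probeset, 3450971, differed little, at 5.62 in MKN45P and 5.94 in MKN45, and the widest gap was at 3450954, at 2.31 in MKN45P and 3.54 in MKN45. All 7 probesets with signal were lower in MKN45P. Only 3 of them reached the line in MKN45P itself, and the rest passed through MKN45, so their direction partly follows from the selection. The smallest difference among the 7 was at 3450969, with 5.28 in MKN45P and 5.44 in MKN45. SLC2A12, a glucose transporter found in muscle, fat and some tumours, stood at 1.91 in MKN45P and 1.81 in MKN45 (difference 0.01 over 17 probesets). Of its 2 probesets with signal, 2974981 was at 3.45 in MKN45P and 4.03 in MKN45, and 2974960 at 2.85 in MKN45P and 2.73 in MKN45.

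**Figure D3:**
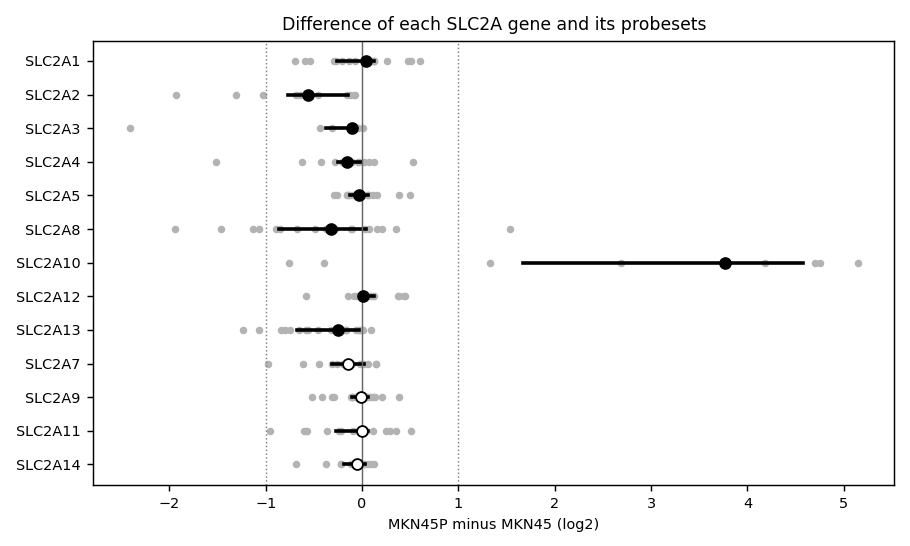
MKN45P minus MKN45 (log2) of each SLC2A gene: grey points are probesets, bars the interquartile range over probesets, black points the gene median of members and white points that of the 4 other family genes; dotted lines mark 2-fold. Only the SLC2A10 median (3.76) lies past a dotted line, and single probesets of SLC2A2, SLC2A3, SLC2A4, SLC2A8 and SLC2A13 lie past the lower one.

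The 4 further family genes on the array, SLC2A14 among them, gave small differences too. SLC2A9, a urate transporter, was at 1.88 in MKN45P and 1.92 in MKN45 (difference -0.01, 24 probesets). Its 5 probesets with signal differed by -0.42 to 0.38. SLC2A11 was at 2.33 in both lines (-0.01, 20 probesets), and its 6 probesets with signal differed by -0.95 to 0.29. Of the 2 with signal in SLC2A14, 3442836 was at 3.89 in MKN45P and 4.58 in MKN45. SLC2A7, a gene of intestine beside SLC2A5, was at 2.35 in MKN45P and 2.33 in MKN45, with a difference of -0.15 over 13 probesets. All 5 of its probesets with signal were lower in MKN45P, the widest being 2395556, at 2.86 in MKN45P and 3.84 in MKN45.

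Unnamed probesets also had IDs between those of the members, 62 in all, and 6 of them passed 2-fold. Within SLC2A1 they were 2409144 (4.21 in MKN45P and 2.87 in MKN45), 2409145 (4.14 in MKN45P and 2.99 in MKN45) and 2409149 (4.46 in MKN45P and 3.44 in MKN45), all higher in MKN45P. Lower in MKN45P were 2974980 within SLC2A12 (4.09 in MKN45P and 6.12 in MKN45), 2395605 within SLC2A5 (4.05 in MKN45P and 5.28 in MKN45) and 3189804 within SLC2A8 (6.41 in MKN45P and 7.45 in MKN45). Within SLC2A14, which is no member, 3442837 was at 7.63 in MKN45P and 9.26 in MKN45. These probesets were named after their values were seen. The annotation gives them no gene, and they entered no gene value. The share of all unnamed probesets past 2-fold was not counted, so 6 of 62 is not read as many or few.

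Genes that act on or next to sugar transporters were then read from 9 lists of 116 genes, of which 94 were measured. In MKN45P 6 of them passed 2-fold upward and 2 downward, with a median difference of 0.05. The shares in all measured genes were 4.58% and 1.2%, as given above. The lists are described by count and median only, and nothing particular to a list is drawn from them.

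The list of transporter endocytosis, sorting and storage held 2 of those 6 genes, both alpha-arrestins. TXNIP, which binds SLC2A1 and promotes its removal from the cell surface, was at 10.61 in MKN45P and 8.15 in MKN45. Its difference was 2.07 (interquartile range over 16 probesets 1.75 to 2.70), with every probeset higher in MKN45P. ARRDC3, a related adaptor, was at 4.25 in MKN45P and 3.06 in MKN45 (difference 1.15, 0.58 to 1.37), again higher at all 15 probesets. None of the 18 measured genes of this list was 2-fold lower, and 13 had a positive difference, with a list median of 0.21. SLC2A1 RNA itself, as given above, differed by 0.05. Protein and surface location were not measured.

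Among the 14 measured transcription factors known to act on sugar transporter genes none was past 2-fold (median 0.31, with 9 positive); by the difference between median levels in place of the median difference, 1 was higher and 1 lower. MEF2D, of the MEF2 family that acts on SLC2A4, was the highest (0.65), at 5.97 in MKN45P and 3.98 in MKN45, and SP3, which binds GC boxes, the lowest (-0.34), at 3.12 in MKN45P and 4.38 in MKN45. MLXIP, the glucose-sensing factor known to drive TXNIP, was at 8.97 in MKN45P and 8.35 in MKN45, higher at 20 of 21 probesets by a median of 0.53. It was named after its value was seen and is not an extreme of the list. MLX, of the same list, was at 4.84 in MKN45P and 4.94 in MKN45 (-0.07), lower at 10 of 16 probesets. A link of these values to TXNIP was not tested.

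In the insulin signalling list 1 gene of 15 was 2-fold higher and 1 lower (median 0.00). PIK3R1, the regulatory subunit of phosphoinositide 3-kinase, was at 3.08 in MKN45P and 5.02 in MKN45. Its median difference over 24 probesets was -1.62 (interquartile range -2.03 to -0.94). PRKAB2, a subunit of the energy sensor AMPK, was at 4.19 in MKN45P and 3.52 in MKN45 (1.02, 0.70 to 1.89 over 11 probesets), just past the line.

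Enzymes that use the transported sugar were mostly within 2-fold. Of 16 measured glycolysis genes ENO2, the neuronal enolase, was higher at 5.74 in MKN45P against 4.45 in MKN45 (1.15, 0.27 to 1.45). PFKFB2, which makes the activator of phosphofructokinase, was lower at 3.65 in MKN45P against 4.74 in MKN45 (-1.18, -1.75 to -0.54), and the list median was 0.03. None of 7 measured genes of hexose phosphorylation and dephosphorylation was past 2-fold (median 0.26). HK1, the widespread hexokinase, was the highest at 0.67, with 3.44 in MKN45P and 2.45 in MKN45, and SLC37A4, the glucose 6-phosphate carrier of the endoplasmic reticulum, the lowest at -0.22.

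In the fructose, polyol and galactose list GALM, which converts the anomers of galactose, was the 1 gene of 5 past 2-fold, at 3.83 in MKN45P and 2.60 in MKN45 (1.57, 0.80 to 1.86, median of the list 0.04). In lactate export EMB, a partner protein of lactate transporters, was the 1 of 5, at 4.29 in MKN45P and 2.36 in MKN45 (1.18, 0.34 to 1.89, 4 probesets, list median 0.12). None of 8 myo-inositol genes was past 2-fold, from ITPK1, an inositol phosphate kinase, at -0.86 to ISYNA1, which makes inositol phosphate from glucose 6-phosphate, at 0.50 (median 0.06).

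The sodium-coupled SLC5A transporters, which move sugars or inositol against their gradient, gave no gene past 2-fold among 6 measured (median -0.06). The highest was SLC5A3, the sodium and myo-inositol cotransporter, at 4.87 in MKN45P and 4.15 in MKN45 (0.72, 0.45 to 0.94 over 4 probesets). The lowest was SLC5A10, at 2.51 in MKN45P and 2.61 in MKN45 (-0.11).

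**Figure D4:**
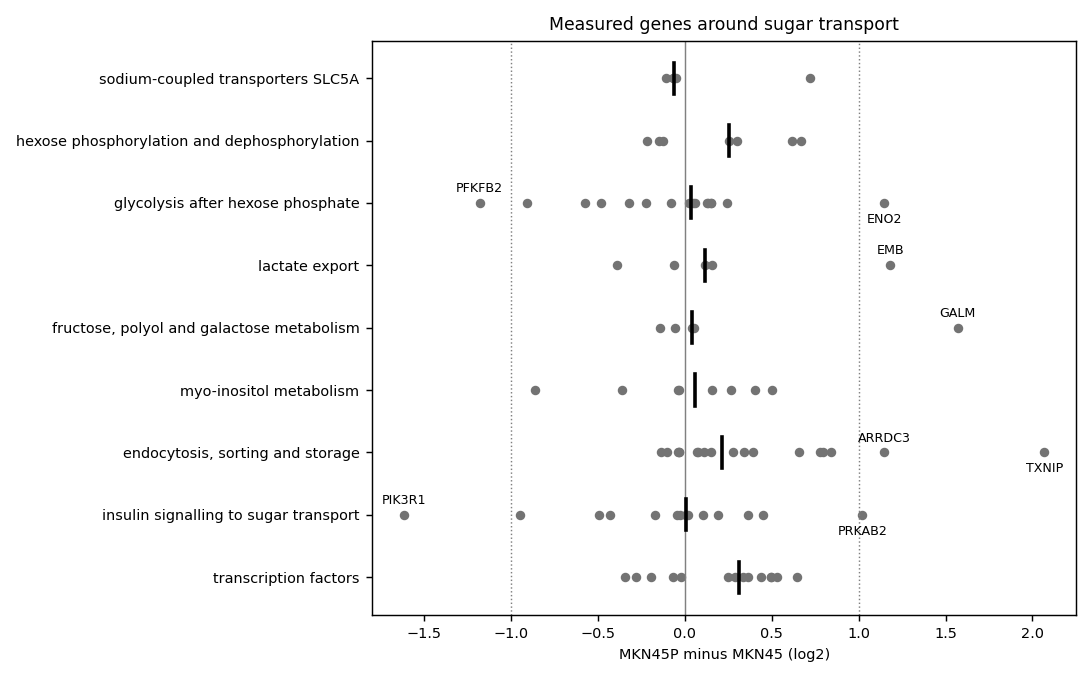
MKN45P minus MKN45 (log2, horizontal axis) of the measured genes in 9 lists around sugar transport, 1 point per gene, with a black bar at the list median and dotted lines at 2-fold; genes past 2-fold are named. TXNIP (2.07) is farthest to the right and PIK3R1 (-1.62) farthest to the left.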

How the data were processed

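Total RNA of 1 culture each of MKN45P and MKN45 was measured on an Affymetrix exon array. The deposited table gives log2 values of 877986 probesets; that they are log2 was inferred from their range. The authors used Partek and the hg18 build, per the submitters' processing notes; no source used here gives Partek's version or role, the background correction or the normalization. The values ran from 1.42 to 13.45 in MKN45P and from 1.42 to 13.48 in MKN45 and were used as deposited. No detection call was used, and the 2 arrays limit the precision.

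Symbols came from GEO's platform annotation: 286871 probesets had 1 symbol, 3137 had several and the rest none. List genes were matched by symbol or through older names in RefSeq of GRCh38.p14, which also gave neighbours and the promoter windows. Gene differences, the level filter and the 2-fold line are as given with the results. The members and lists were chosen with earlier results of these data known. Named were every family gene, the extreme probesets with signal of each member, and of each list the genes past 2-fold or else the highest and lowest. Alternatives were 3 other scalings, 2 other gene summaries, probesets with signal alone, 2 other filters and a 1.5-fold line. The gene step was tested on simulated data, made by shuffling the probeset deviations of these arrays and adding fixed shifts. That simulation holds no variation between arrays of the same line, so it says nothing about replicate error. Python 3.11.15, numpy 2.4.6, pandas 2.3.3 and statsmodels 0.14.6 were used.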

Additional observations from a re-analysis of the deposited data

How the results depend on the processing

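SLC2A10 was the 1 member past the line upward in MKN45P under all 9 alternatives, 1 of which used a 1.5-fold line. The 2 other filters and the 1.5-fold line leave the SLC2A10 difference as it was, so they do not bear on its size. Its difference ran from 2.92 to 4.34 over 7 settings, the reported one included. Taking probesets with signal alone could not move it from 3.76, because all 10 of its probesets had signal. Of these, 6 had it only through MKN45P. Its difference was 3.98 without the bright pair of probesets and 2.68 with the 3 unnamed probesets, both chosen after seeing the data. No member was 2-fold lower, except over probesets with signal alone, where 2 were (SLC2A2 at -1.62 and SLC2A4 at -1.07, each on 2 probesets). Both SLC2A2 probesets and 1 of the 2 of SLC2A4 passed as signal only through MKN45, where they were higher. These 2 calls therefore follow in part from the selection. SLC2A3, not measured, was at -1.20 over its probesets with signal. SLC2A1 took either sign, from -0.06 to 0.06, and so did SLC2A5 (-0.04 to 0.11) and SLC2A12 (-0.23 to 0.09). Without its widest probeset, chosen after seeing the data, SLC2A3 was at -0.09. Of the lists, the trafficking genes had 2 to 4 members 2-fold higher across settings, and 6 past 1.5-fold; no glycolysis gene passed 2-fold upward with the mean over probesets, no insulin signalling gene with the difference of median levels, and no lactate export gene with at least 10 probesets required. By contrast the difference of median levels put 1 transcription factor 2-fold higher and 1 lower; 2 insulin signalling genes were 2-fold lower with quantile, loess, median levels or signal alone, and 2 glycolysis genes with median levels or signal alone; signal alone also gave 2 insulin signalling and 1 hexose phosphorylation gene 2-fold higher, and no filter 1 fructose list gene lower. The share of all measured genes past 2-fold that were higher also depended on scaling, with 602 higher and 157 lower as deposited, 524 and 193 after quantile normalization and 514 and 195 after loess. No paired analysis was possible because each line has 1 array. Low signal limits the size for SLC2A10 in MKN45, and the values of SLC2A2, SLC2A3, SLC2A4, SLC2A5, SLC2A12 and SLC2A13.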

Other observations

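Probesets with signal that go against their gene were also found in other genes. Of 602 genes at least 2-fold higher in MKN45P, 96 (15.9%) had 2 or more probesets with signal in both lines that were lower in MKN45P by any amount. This count was made after the SLC2A10 values were seen. It does not show how many genes hold a pair as bright, or as far from the gene, as that of SLC2A10. The share of all measured genes with such probesets was not counted. AKR1B10, an aldo-keto reductase active on aldehydes such as retinal, was outside the comparisons because it had only 3 probesets, and it was named after its value was seen. It stood at 1.70 in MKN45P and 4.78 in MKN45, lower at all 3 probesets with a median difference of -3.13; it belongs to a family of close relatives, so its value is uncertain.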
